A study of Mus musculus with 6 samples.

Results

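The lysosome was followed here through 39 genes: 15 soluble hydrolases and other lumenal proteins, 6 membrane proteins, 15 subunits and accessory proteins of the vacuolar proton pump (V-ATPase), and the MiT/TFE transcription factors Tfeb, Tfe3 and Mitf. They were found by symbol among the 25124 genes of the deposited expression table. The rule itself uses no level, but the members and the lists of other genes were chosen with earlier results of these data known. Of the 39, 38 had a TPM (a level scaled for transcript length and for the depth of the library) of at least 1 in at least 3 libraries and were tested among 11202 genes, and each of those 38 reached that level in all 6 libraries. The exception was Cd63.

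The cells were RAW264.7, a mouse macrophage-like line. All libraries came from a control derivative that had received a plasmid for the Cas9 nuclease but no guide RNA, as the counterpart of an E4BP4 knockout line, used at fewer than 15 passages and grown in 25 mM glucose with 10% serum. The M0 group (3 libraries) had no IL-4, and the M2 group (3 libraries) had 10 ng/ml IL-4, the cytokine that drives alternative activation. The hours of exposure are not stated, and no label calls the replicates separate cultures. The p-values therefore reflect nothing but the spread among these 6 libraries, and that spread may be technical. Every M0 title, and no M2 title, carries a note of re-analysis, so that note and the absence of IL-4 cannot be told apart.

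Lysosomes digest proteins, glycans and lipids with hydrolases that work in acid. The V-ATPase supplies the acid: its peripheral V1 sector splits ATP and its membrane-embedded V0 sector moves protons into the lumen, while heavily glycosylated membrane proteins line the limiting membrane. TFEB, TFE3 and MITF bind E-box sequences near the starts of many lysosomal genes, and the kinase complex mTORC1, recruited by Rag GTPases, holds them in the cytoplasm when nutrients are plentiful, so their activity is set largely at the protein level. Macrophages are rich in lysosomes because they degrade what they engulf.

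Recovered reads numbered 15615639 to 19511192 per library. Macrophage markers (9 genes, Cd68 among them) summed to 2855 to 3091 TPM in M0 and 2382 to 2478 TPM in M2. Cd14 took the largest part of that gap (634 to 644 TPM in M0, 303 to 316 TPM in M2). Itgam (177 to 187 TPM in M0, 120 to 160 TPM in M2) was also lower without overlap. So was Lyz2 (1017 to 1159 TPM in M0, 907 to 1005 TPM in M2). Adgre1, Mrc1 and Fcgr1 were higher in every M2 library than in any M0 library, Adgre1 and Mrc1 at no more than 6.3 TPM. Csf1r, Spi1 and Cd68 overlapped between the groups. No list of T cell, B cell, fibroblast, epithelial or endothelial markers summed to more than 1.04 TPM in any library. M2 replicate 3 stood apart in a trend of level with gene length (a slope of -0.05 log2 units per doubling of length, against -0.02 to 0.04 in the other libraries), and it was the lowest M2 library for 21 of the 38 members (55.3%) and for 59.0% of all tested genes. In a fit with the length trend removed, 4 members gained a call and 0 lost one. Values without this library are given where they matter. In bulk RNA, fewer cells of a kind and less RNA per cell cannot be told apart.

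With IL-4 the members did not move as 1 block. Of 38, 6 rose and 14 fell (limma on log2(TPM + 1), Benjamini-Hochberg adjusted p under 0.05), where 43.7% of all tested genes were called, 20.1% as higher and 23.7% as lower. Hydrolases and other lumenal proteins were mostly lower (10 of 15, or 66.7%, against 1 higher). The proton pump held 4 higher and 1 lower of 15, the membrane proteins 1 lower of 5, and the factors 1 higher and 2 lower of 3. The median log2 difference was -0.26 for the lumenal proteins, 0.045 for the pump and -0.06 for the membrane proteins, beside -0.03 for all tested genes. Leaving out M0 replicate 3 brought the lumenal proteins called lower to 6. Without M2 replicate 3, 2 lumenal proteins were called higher and 3 pump genes lower, and without any other 1 library no lumenal protein was called higher. The pump genes called higher were 2 without any 1 of the M0 libraries or without M2 replicate 2. Groups that did not overlap were counted as well: M2 lay wholly below M0 for 12 lumenal proteins and wholly above for 1, against 2 and 6 pump genes, where 30.8% and 25.1% of all tested genes did so (55.9% in either direction).

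**Figure D1:**
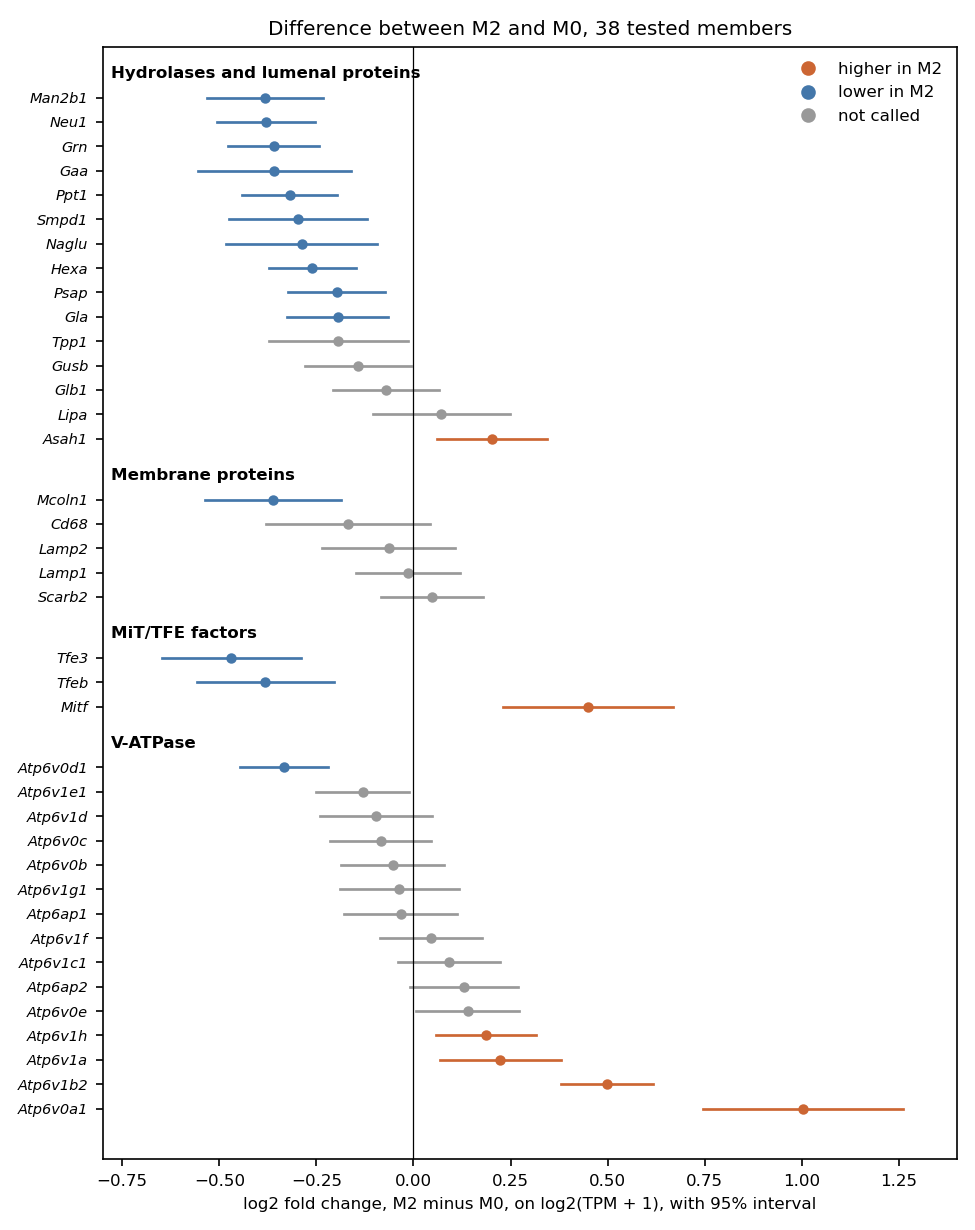
Log2 difference of M2 from M0 on log2(TPM + 1) for the 38 tested members, with 95% intervals from limma (not adjusted for the number of genes), arranged by class and coloured by the call (3 libraries per group). Most lumenal proteins lie left of 0, down to -0.38 for Neu1 and Man2b1, while Atp6v0a1 at 1.00 and Atp6v1b2 at 0.50 lie farthest to the right.

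Promoter sequence is shown because the factors among the members are known to bind E-boxes. RefSeq promoters of build GRCm38.p6, 250 bases before to 50 bases after a gene start, were found for 34 of the 39 genes, in 42 entries; Asah1, Atp6v1b2, Atp6v1c1, Atp6v1g1 and Atp6v1h have no entry there. The core TCACGTG, an E-box CACGTG with a T before it on either strand, occurred in 10 of those 42 (23.8%), against 3.77% of all 32851 promoters of the same length and 6.37% of the 11075 promoters of tested genes. Its 8-base palindrome TCACGTGA occurred in 5 (11.9%, against 0.974% and 2.04%), and each such match also holds the shorter forms. CACGTG with any neighbour was found in the same number, 10 of 42, against 7.15% and 10.6%. Both strands were searched. A match is a description of these letters and not of a bound site. The stretches around the matches follow, 5′ to 3′ on the gene's own strand, with the matched bases in capitals.
Lamp1, chr8:13159088-13159160 (+): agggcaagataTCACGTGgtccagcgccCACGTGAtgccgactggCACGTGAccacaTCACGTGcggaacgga
Mcoln1, chr8:3500436-3500491 (+): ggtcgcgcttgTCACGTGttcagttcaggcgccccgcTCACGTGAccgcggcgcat
Gla, chrX:134601182-134601244 (-): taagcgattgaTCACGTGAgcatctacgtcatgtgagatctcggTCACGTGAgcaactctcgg
Glb1, chr9:114401018-114401047 (+): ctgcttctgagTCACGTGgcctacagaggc
Naglu, chr11:101070009-101070038 (+): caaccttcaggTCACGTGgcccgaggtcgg
Gaa, chr11:119267811-119267840 (+): tttctgtgcgaTCACGTGtttgactctgac
Atp6v0b, chr4:117887330-117887377 (-): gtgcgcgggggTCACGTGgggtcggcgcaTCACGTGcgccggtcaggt
Atp6v0d1, chr8:105566050-105566079 (-): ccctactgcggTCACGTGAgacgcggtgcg
Atp6v1a, chr16:44139373-44139402 (-): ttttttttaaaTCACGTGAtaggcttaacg
Atp6v0e, chr17:26676387-26676416 (+): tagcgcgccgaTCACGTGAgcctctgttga

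**Figure D2:**
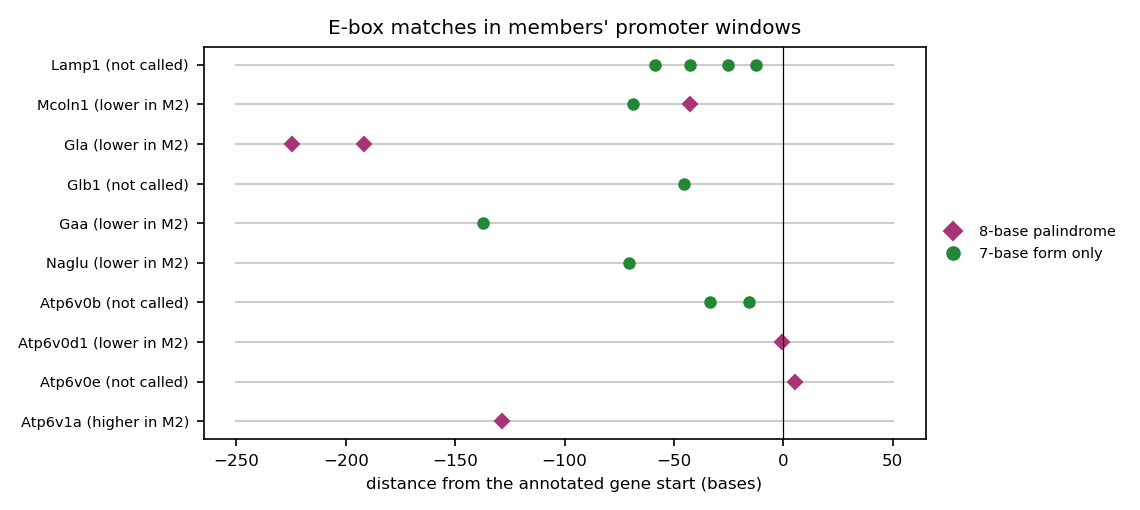
Distance in bases from the annotated gene start (negative is upstream) of each match in the promoters of the 10 members that have one, with the 8-base palindrome as diamonds, the 7-base form alone as circles, and the call of each gene beside its name. Lamp1 has 4 matches, Mcoln1, Gla and Atp6v0b have 2 each and the other genes have 1.

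Genes with this core did not share 1 direction. Of the 14 members called lower, 5 had it (Mcoln1, Gla, Gaa, Naglu and Atp6v0d1), as did Atp6v1a among the 3 called higher that have a promoter entry, and 4 of the 16 tested members with an entry that were not called (Lamp1, Glb1, Atp6v0b and Atp6v0e). Atp6v0d1, which fell, and Atp6v1a, which rose, both carry the 8-base palindrome. None of Tfeb, Tfe3 and Mitf had the core in the window.

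Glycosidases, which trim sugars from glycoproteins and glycolipids, were lower for 6 of 8 members (75.0%), against 23.7% of all tested genes. Their median log2 difference was -0.27. Neu1, the sialidase that removes terminal sialic acid (chr17:34931253-34937297 in mm10), stood at 72.8, 73.6 and 74.3 TPM in M0 replicates 1, 2 and 3 and at 54.6, 59.5 and 55.0 TPM in M2 replicates 1, 2 and 3. All M2 libraries lay below all M0 libraries, and the log2 difference was -0.38 (SE 0.06, limma adjusted p = 7.7e-04). Man2b1, the lysosomal alpha-mannosidase, was measured at 101, 106 and 105 TPM without IL-4 and at 82.3, 83.8 and 72.5 TPM with it. Its log2 difference was also -0.38 (SE 0.07, limma adjusted p = 0.00182), again without overlap of the groups.

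Gaa, the acid alpha-glucosidase that degrades glycogen, held 37.0, 36.5 and 38.2 TPM in M0 against 30.9, 31.0 and 25.0 TPM in M2. M2 replicate 3 was the lowest, the groups did not overlap, and the log2 difference was -0.36 (SE 0.09, limma adjusted p = 0.0099). Hexa encodes the alpha subunit of beta-hexosaminidase and had 289, 293 and 295 TPM in M0 and 239, 249 and 244 TPM in M2. The libraries of each group lay close together, and the log2 difference was -0.26 (SE 0.05, limma adjusted p = 0.00287). The Hexa model shares 10.6% of its 50-base windows with Tmem202, which overlaps it on the opposite strand, and the sources used here do not give the strand setting of the counting.

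Naglu, which removes N-acetylglucosamine from heparan sulfate, gave 44.1, 41.3 and 43.2 TPM in M0 and 37.6, 37.3 and 30.4 TPM in M2. The groups did not overlap and the log2 difference was -0.29 (SE 0.09, limma adjusted p = 0.0238). This call was lost without M0 replicate 1 (adjusted p = 0.0784) or M0 replicate 3 (adjusted p = 0.0735) in the limma fit, and without M2 replicate 3, its lowest library, the log2 difference was -0.19. Gla, the alpha-galactosidase that splits globotriaosylceramide, gave 48.1, 52.2 and 50.7 TPM in M0 and 42.5, 44.1 and 44.8 TPM in M2. Its log2 difference was -0.20 (SE 0.06, limma adjusted p = 0.0227), and no library overlapped, but the call rests on M0 replicates 2 and 3 and M2 replicate 1: leaving any of them out gave a limma adjusted p of 0.109, 0.0852 or 0.0722.

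The other glycosidases were Gusb, the beta-glucuronidase, and Glb1, the beta-galactosidase. Gusb gave 315, 343 and 351 TPM in M0 and 295, 308 and 309 TPM in M2, each M2 library below each M0 library, and missed the threshold (log2 difference -0.14, SE 0.06, limma adjusted p = 0.082). Without M0 replicate 1, its lowest M0 library, it passed (limma adjusted p = 0.0454). Glb1 gave 46.9 to 50.9 TPM in M0 and 43.9 to 47.1 TPM in M2, ranges that overlap.

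The lumenal proteins that are not hydrolases were among the most abundant members, and both fell. Grn encodes progranulin, which is cut into granulins inside lysosomes (chr11:102430507-102436809 in mm10). It stood at 509, 520 and 525 TPM in M0 and at 397, 414 and 399 TPM in M2. The gap between the groups was wider than the spread within either, with a log2 difference of -0.36 (SE 0.05, limma adjusted p = 6.9e-04). Psap, the precursor of the saposins that present sphingolipids to their hydrolases, stood at 616, 634 and 618 TPM in M0 and at 549, 558 and 522 TPM in M2. Every M2 library was lower, by a log2 difference of -0.20 (SE 0.05, limma adjusted p = 0.0176). Leaving out M0 replicate 2 or M0 replicate 3 took its limma adjusted p to 0.0865 or 0.0667.

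Ppt1, the thioesterase that strips palmitate from proteins, gave 153, 157 and 148 TPM in M0 and 122, 127 and 118 TPM in M2. It was lower in every M2 library, by a log2 difference of -0.32 (SE 0.05, limma adjusted p = 0.00165). Tpp1, a tripeptidyl peptidase, gave 87.9, 87.2 and 85.1 TPM in M0 and 82.0, 79.4 and 66.6 TPM in M2. These groups did not overlap either, but the M2 libraries were spread out and the test was not passed (log2 difference -0.19, SE 0.08, limma adjusted p = 0.0749). Without M2 replicate 1 it was (limma adjusted p = 0.0405), and without M2 replicate 3, the lowest library, the log2 difference was -0.10 (limma adjusted p = 0.0993).

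Lipid hydrolases went different ways. Smpd1, the acid sphingomyelinase, gave 20.3, 22.2 and 22.2 TPM in M0 and 18.7, 17.5 and 15.9 TPM in M2, with no overlap. It fell by 0.30 on the log2 scale (SE 0.08, limma adjusted p = 0.0143), a call lost without M0 replicate 2 (limma adjusted p = 0.0611) or M0 replicate 3 (limma adjusted p = 0.0625). Asah1, the acid ceramidase that takes the next step after sphingomyelinase, was the single lumenal member that rose: it gave 127, 126 and 122 TPM in M0 and 145, 155 and 134 TPM in M2. All M2 libraries were above all M0 libraries, with a log2 difference of 0.20 (SE 0.06, limma adjusted p = 0.0282). The Asah1 call did not hold when any 1 of the M0 libraries, M2 replicate 1 or M2 replicate 2 was left out (limma adjusted p = 0.0608 to 0.106), and without M2 replicate 3 it had an adjusted p of 0.0033.

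Lipa, the acid lipase for cholesteryl esters and triglycerides, gave 251, 270 and 254 TPM in M0 and 284, 293 and 241 TPM in M2. M2 replicates 1 and 2 lay above every M0 library and M2 replicate 3 below every one, so whether it passed turned on that library. Over all libraries its log2 difference was 0.07 (limma adjusted p = 0.482), and without M2 replicate 3 it was 0.16 (limma adjusted p = 0.0329).

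Summed over the 15 lumenal members, the level was 2723, 2810 and 2780 TPM in M0 and 2427, 2504 and 2322 TPM in M2, a ratio of 0.872. For the pump the sum was 2279, 2256 and 2250 TPM in M0 and 2410, 2459 and 2456 TPM in M2, a ratio of 1.08. The sums of the lumenal proteins thus lay lower in every M2 library and those of the pump higher. The log2 difference was negative for 13 lumenal members and positive for 2, against 7 and 8 pump genes. Within the pump sum the largest gains of mean TPM were those of Atp6v1b2 (202 to 286 TPM) and Atp6v0a1 (45.45 to 92.53 TPM). Tcirg1, an a subunit outside the members that fell, is not in that sum.

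**Figure D3:**
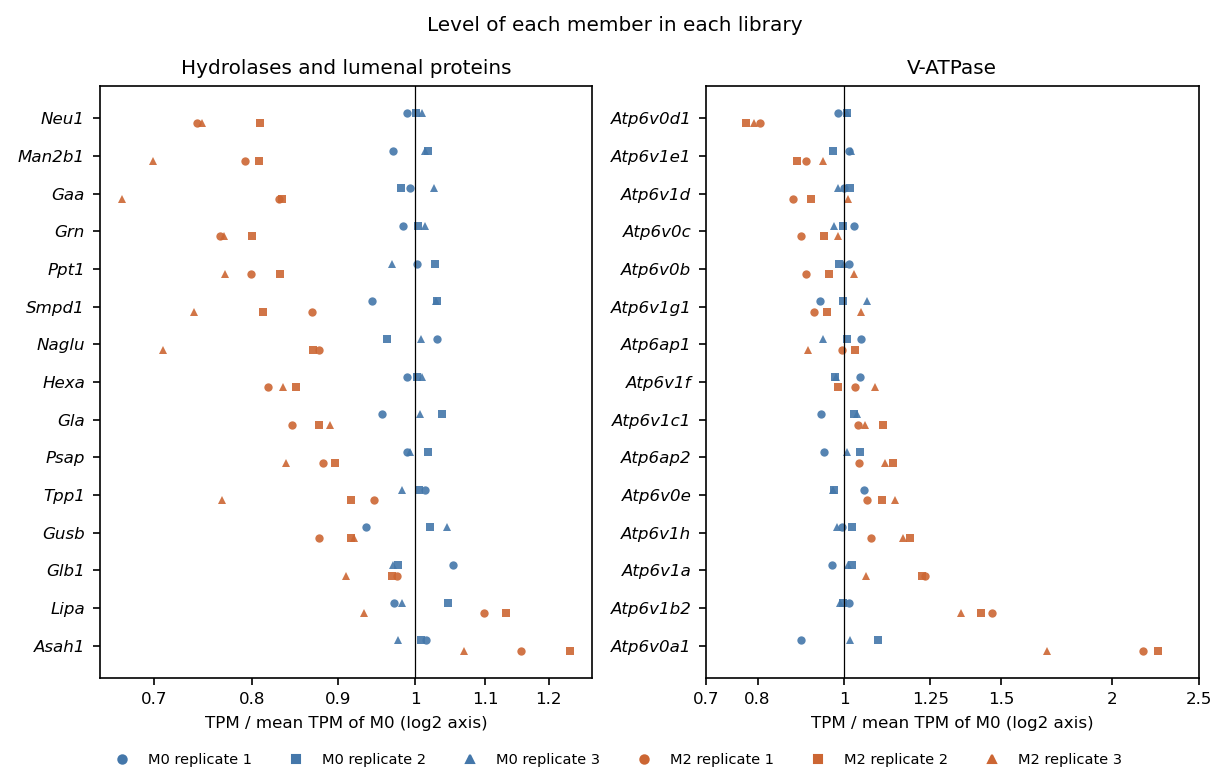
TPM of each of the 15 lumenal proteins (left) and 15 pump genes (right) in each of the 6 libraries, divided by the mean TPM of the 3 M0 libraries, on log2 axes, with colours for the groups and symbols for the replicates. The M2 libraries lie below all M0 libraries for 12 lumenal proteins, and above them all for 6 pump genes, with Atp6v0a1 and Atp6v1b2 farthest out.

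Abundant structural proteins of the membrane showed no called difference. Lamp1, a main glycoprotein of the limiting membrane, gave 510, 501 and 486 TPM in M0 and 519, 496 and 468 TPM in M2, overlapping groups with a log2 difference of -0.01 (95% interval -0.15 to 0.12, limma adjusted p = 0.868). Lamp2, its relative that also serves chaperone-mediated autophagy, lay between 355 and 396 TPM in M0 and between 326 and 388 TPM in M2. Scarb2, the receptor that carries beta-glucocerebrosidase to lysosomes, lay between 26.2 and 26.6 TPM in M0 and between 26.4 and 27.8 TPM in M2. The ranges of both overlapped.

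Cd68, or macrosialin, is a mucin-like LAMP relative and a macrophage marker. It gave 617, 562 and 525 TPM in M0 and 560, 513 and 447 TPM in M2. The groups overlapped and the log2 difference of -0.17 (SE 0.09) did not pass (limma adjusted p = 0.172). It was -0.08 without M2 replicate 3 and -0.11 without M0 replicate 1. Mcoln1, the TRPML1 channel that releases calcium from lysosomes, was the membrane protein that fell. It gave 29.2, 28.0 and 29.5 TPM in M0 and 22.9, 24.1 and 19.97 TPM in M2, with no overlap and a log2 difference of -0.36 (SE 0.08, limma adjusted p = 0.00548). No membrane member rose: 0 were higher by limma at an adjusted p under 0.05, 0 at an unadjusted p under 0.05 and 0 by limma-voom. Only 5 were tested, and 20.1% of all tested genes were called higher.

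Cd63, a tetraspanin of late endosomes and lysosomes, was close to 0, with 0.143, 0.223 and 0.17 TPM in M0 and 0.218, 0.299 and 0 TPM in M2. These values stand for 7 recovered reads in M0 and 7 in M2. Of the 50-base windows of Cd63 transcripts, 24.6% occur also in the pseudogene Cd63-ps, and the sources used here do not say how reads with several matches were counted. Atp6v0c, with 27.1% of its windows shared with pseudogenes, had 2943 recovered reads in M0 and 3016 in M2. The cause of the low Cd63 level was not tested, and that level was not taken as absence of the transcript.

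In the V0 sector, 1 of 5 subunits rose and 1 fell, shares close to those of all tested genes (20.1% and 23.7%). Atp6v0a1, 1 of the alternative a subunits that form the proton path and steer the pump to particular membranes, had the largest difference of all 38 tested members. It gave 40.6, 49.6 and 46.1 TPM in M0 and 98.5, 102 and 76.8 TPM in M2. Means were 45.4 ± 4.52 TPM (SD, n = 3) and 92.5 ± 13.7 TPM (SD, n = 3), 2.04-fold higher with IL-4, every M2 library lying above every M0 library. The log2 difference was 1.00 (SE 0.11, 95% interval 0.75 to 1.26, limma adjusted p = 1.98e-04), and 1.13 without M2 replicate 3, the lowest of the M2 libraries.

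The model behind these Atp6v0a1 values has 921 bases and lies at chr11:101009441-101027502 in mm10, 33.3% of the span of the gene in GENCODE M21. In the authors' deposited table of comparisons a model of 3947 bases stands for the gene, with a log2 fold change of 1.19. The rise was thus seen with both models, although reads outside the short one do not enter its TPM.

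Atp6v0d1, the subunit that couples V0 to the central stalk, moved the other way. It gave 76.1, 77.7 and 77.7 TPM in M0 and 62.2, 59.9 and 61.2 TPM in M2, tight groups without overlap. Its log2 difference was -0.33 (SE 0.05, limma adjusted p = 8.98e-04). The proteolipid subunits Atp6v0b and Atp6v0c, which form the rotating ring, were at 231 to 237 and 65.0 to 68.4 TPM in M0 and at 212 to 240 and 59.6 to 65.7 TPM in M2, overlapping ranges. Atp6v0c shares 27.1% of its 50-base windows with the pseudogenes Atp6v0c-ps2 (26.9%) and Atp6v0c-ps1. Atp6v0e, a small V0 subunit, gave 374, 346 and 345 TPM in M0 and 377, 392 and 406 TPM in M2, each M2 library above each M0 library, but did not pass (log2 difference 0.14, SE 0.06, limma adjusted p = 0.0816).

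Among 8 subunits of V1, 3 (37.5%) rose and 0 fell at an adjusted p under 0.05 by limma, against 20.1% and 23.7% of all tested genes. Of these subunits 1 was lower at an unadjusted p under 0.05, and 0 by limma-voom. Atp6v1b2, the B subunit found in most tissues, which forms the catalytic hexamer with A, had the largest rise of these (chr8:69088736-69113717 in mm10). It gave 205, 201 and 200.2 TPM in M0 and 296, 288 and 274 TPM in M2. The groups were far apart for their spread: 202 ± 2.38 TPM against 286 ± 11.4 TPM (SD, n = 3 each), 1.42-fold, with a log2 difference of 0.50 (SE 0.05, limma adjusted p = 1.39e-04).

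Atp6v1a, the catalytic A subunit, gave 128, 134 and 133 TPM in M0 and 162, 161 and 139 TPM in M2. M2 replicate 3 was near the M0 libraries, though above them all, and the log2 difference was 0.22 (SE 0.07, limma adjusted p = 0.0271). Without M2 replicate 3 the limma adjusted p of Atp6v1a was 0.00107, whereas without any other single library it was between 0.0626 and 0.0891. Atp6v1h, a regulatory subunit that bridges both sectors, gave 113, 116 and 111 TPM in M0 and 121, 134 and 131 TPM in M2, without overlap. It rose by a log2 difference of 0.19 (SE 0.06, limma adjusted p = 0.0266), and the call was lost without any 1 of the M0 libraries or without M2 replicate 2 (limma adjusted p = 0.0651 to 0.102).

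The remaining V1 subunits form the stalks and showed smaller differences. Atp6v1e1 gave 156, 150.04 and 157 TPM in M0 and 140.2, 137 and 146 TPM in M2: lower in each M2 library, but not called (log2 difference -0.13, SE 0.05, limma adjusted p = 0.0712), and called without M2 replicate 3 (limma adjusted p = 0.0234). Atp6v1c1 gave 159 to 174 TPM in M0 and 175 to 187 TPM in M2, above by a narrow gap and not called (limma adjusted p = 0.227). Atp6v1d gave 62.3 to 64.4 TPM in M0 and 55.5 to 63.9 TPM in M2, with overlap, and was called lower once M2 replicate 3 was left out (limma adjusted p = 0.0291). Atp6v1f and Atp6v1g1 overlapped between the groups, with log2 differences of 0.045 and -0.04.

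The accessory proteins assist assembly and targeting of the pump, and Atp6ap2 is also the prorenin receptor. Atp6ap1 gave 147 to 162 TPM in M0 and 142 to 160.0 TPM in M2, and Atp6ap2 gave 53.2 to 58.5 TPM in M0 and 58.3 to 63.6 TPM in M2. Both pairs of ranges overlapped, and neither gene was called.

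The a subunit has alternatives, so their shares were compared within each library over Atp6v0a1, Atp6v0a2 and Tcirg1 (the a3 subunit, known from osteoclasts and lysosomes). Atp6v0a1 made up 21.2%, 24.7% and 23.6% of their summed TPM in M0 and 41.5%, 42.1% and 40.2% in M2. Tcirg1 made up 72.1%, 68.0% and 69.7% in M0 and 51.8%, 50.8% and 53.0% in M2. Atp6v0a2 stayed between 6.66% and 7.26% in all 6 libraries, so the shift was between the other two, and M2 replicate 3 did not stand apart in it. These shares rest on the short Atp6v0a1 model.

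Tcirg1 itself gave 138, 136 and 136 TPM in M0 and 123, 123 and 101 TPM in M2. It was lower in every M2 library (log2 difference -0.24, SE 0.08, limma adjusted p = 0.0324). That call was lost when any 1 of the M0 libraries was left out, with a limma adjusted p of up to 0.0854, and without M2 replicate 3 the log2 difference was -0.15.

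**Figure D4:**
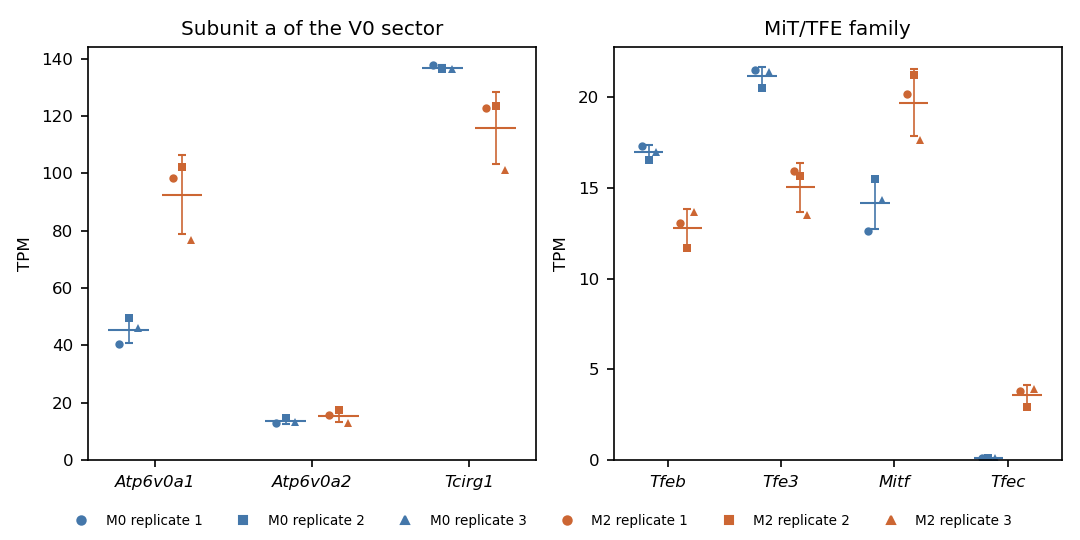
TPM in each library of the a subunits of the pump (left) and of the MiT/TFE family with Tfec (right), with symbols for the replicates and lines for the mean and SD of the 3 libraries of a group. Atp6v0a1 and Mitf lie higher in all M2 libraries than in any M0 library, and Tcirg1, Tfeb and Tfe3 lower.

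The factors split. Tfeb, which drives lysosome biogenesis, gave 17.3, 16.5 and 16.98 TPM in M0 and 13.1, 11.7 and 13.7 TPM in M2. All M2 libraries were lower, by a log2 difference of -0.38 (SE 0.08, limma adjusted p = 0.00415). Tfe3, the relative with overlapping targets, gave 21.5, 20.5 and 21.4 TPM in M0 and 15.9, 15.6 and 13.5 TPM in M2. It had the largest fall of the 38 tested members, a log2 difference of -0.47 (SE 0.08, limma adjusted p = 0.00157), with no overlap.

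Mitf, known for melanocyte and osteoclast programmes, went up. It gave 12.6, 15.5 and 14.3 TPM in M0 and 20.2, 21.2 and 17.6 TPM in M2. The lowest M2 library lay above the highest M0 library, the means were 1.39-fold apart, and the log2 difference was 0.45 (SE 0.10, limma adjusted p = 0.00547). Summed over Tfeb, Tfe3 and Mitf, the level was 51.5, 52.5 and 52.7 TPM in M0 and 49.2, 48.5 and 44.8 TPM in M2, so the make-up of the family differed more than its sum.

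Tfec, the fourth family member, is expressed mainly in myeloid cells. Its levels were 0.108, 0.112 and 0.085 TPM in M0 and 3.83, 2.93 and 3.93 TPM in M2, from 8 recovered reads in M0 and 304 in M2. It passed the filter only through the M2 libraries, so it had to differ, and its difference is given as a description with no test. On log2(TPM + 1), a scale that understates changes of low genes, the difference was 2.04, and with a pseudocount of 0.1 it was 4.17. Summed with Tfec, the family gave 51.56, 52.64 and 52.78 TPM in M0 and 53.02, 51.45 and 48.72 TPM in M2, groups that overlap. Of that sum Tfec held at most 0.213% in any M0 library and 5.69% to 8.06% in M2.

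Genes around the factors were covered by a list of 21, of which 20 were tested. With IL-4, Rragb, Lamtor5 and Xpo1 were called higher, and 6 were called lower (Fnip2, Rraga, Rragc, Ppp3ca, Usf1 and Usf2). Tfec is among the 20 only through the filter just described, so it had to differ and is not counted as a rise. Of all tested genes, 20.1% were called higher and 23.7% lower. The calls of Lamtor5 and Rragc held under 10 and 9 of 18 alternatives. Rraga, a Rag GTPase that brings mTORC1 to the lysosome, averaged 90.5 ± 3.14 TPM in M0 and 64.4 ± 3.78 TPM in M2 (SD, n = 3 each), a log2 difference of -0.48 (limma adjusted p = 3.4e-04). Rragb, its close relative, averaged 6.15 TPM in M0, and rose to 8.56 TPM in M2 (limma adjusted p = 0.0222), a call lost without M0 replicate 2, M0 replicate 3 or M2 replicate 2 (limma adjusted p = 0.0536 to 0.0762). Fnip2, a partner of folliculin in Rag control, averaged 20.1 TPM in M0 and 11.1 TPM in M2, a log2 difference of -0.81 (limma adjusted p = 0.00142). Usf1, another E-box binding factor, averaged 42.6 ± 2.40 TPM in M0 and 27.3 ± 1.246 TPM in M2 (log2 difference -0.63, limma adjusted p = 1.38e-04). Xpo1, which exports these factors from the nucleus, averaged 142 TPM in M0, and rose to 172.5 TPM in M2 (limma adjusted p = 0.028), a call lost without M0 replicate 1, M0 replicate 3, M2 replicate 1 or M2 replicate 2 (limma adjusted p = 0.0556 to 0.0961).

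A list of other hydrolases, cofactors and related enzymes was also lower more often than higher. Of 36 tested, 18 fell and 5 rose, with a median log2 difference of -0.24. Of all tested genes, 23.7% fell and 20.1% rose, with a median of -0.03. The list was not restricted to soluble lumenal proteins (Hgsnat, Hyal2, Gnptab and Sumf1 are in it). Its counts therefore do not extend the contrast between lumenal and membrane members. Both Rnaset2a and Rnaset2b are among those that fell. They lie at nearly the same coordinates on opposite strands. Their recovered reads were 1225 and 1242 in M0 and 1088 and 1105 in M2, so these falls may not be separate. Pld3, an exonuclease of the phospholipase D family, averaged 35.9 TPM in M0 and 24.6 TPM in M2, a log2 difference of -0.53 (limma adjusted p = 4.6e-04). Fuca1, the alpha-fucosidase, averaged 68.9 and 53.0 TPM, a log2 difference of -0.37 (limma adjusted p = 9.8e-04). Hyal2, a hyaluronidase, was among those that rose, from 20.2 to 24.7 TPM (log2 difference 0.28, limma adjusted p = 0.00634).

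Of 35 other membrane proteins and transporters tested, 4 (11.4%) rose (Mcoln2, Slc17a5, Npc1 and Tpcn2) and 9 (25.7%) fell, the latter near the 23.7% of all tested genes and the former below their 20.1%. Mcoln2, the TRPML2 relative of Mcoln1, averaged 25.8 ± 1.11 TPM in M0 and 46.7 ± 4.27 TPM in M2 (SD, n = 3 each), a log2 difference of 0.83 (limma adjusted p = 7.0e-05). Slc17a5, the sialic acid exporter, averaged 23.9 and 36.6 TPM, a log2 difference of 0.60. Abcd4, a cobalamin transporter, averaged 15.4 and 7.63 TPM and fell by 0.93 on the log2 scale (limma adjusted p = 7.2e-05), and the next by adjusted p were Slc15a4 and Tmem63a at -0.57 and -0.43. Other genes of the pump and its assembly held 14 tested, of which Ccdc115 rose (7.14%), Tcirg1 and Vma21 fell (14.3%) and 11 were not called. Both shares lay below those of all tested genes (20.1% and 23.7%). The Ccdc115 and Vma21 calls (limma adjusted p = 0.0428 and 0.0405) held under 7 and 5 of 18 other ways of processing. Ccdc115 lost its call without any 1 library other than M2 replicate 2, and Vma21 without any 1 library other than M2 replicate 3.

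In the authors' deposited table of comparisons, 6 members were higher and 13 lower with IL-4 at an adjusted p under 0.05, where 43.9% of genes tested here were called, 22.8% as higher and 21.1% as lower. Those 19 were called here in the same direction. Gla, the member called here alone, had an adjusted p of 0.105 in the authors' deposited table.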

How the data were processed

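The members and lists were chosen with earlier results of these data known. Per the file headers, the first deposited table holds TPM by the authors for 25124 genes, each with 1 transcript model and that model's length. A second deposited table holds, for 24421 genes, the authors' values per library, read from their range as log2 values since the header names no transform, and for each gene a log2 fold change by the authors with a p-value before and after adjustment. Tools named in the submitters' processing notes are HOMER 4.11.1, STAR 2.7.5a, DESeq2 and bcl2fastq, without their roles, with the build mm10. The sources used here do not give the annotation, the strand setting or the handling of reads that map more than once. Poly(A) RNA came from 200 ng of total RNA, per the labels' protocols.

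The 11202 genes that reached a TPM of 1 in 3 or more libraries were fitted by group with limma 3.58.1 (R 4.3.3) on log2(TPM + 1), with a trend of variance on mean and Benjamini-Hochberg adjustment over all of them, and called at an adjusted p under 0.05. The fit was tested on simulated data whose changes were larger than those of every tested member but Atp6v0a1. Differences as small as those of the other members were not covered. Fold changes on this scale are smaller than the true ones for low genes; folds in the text are ratios of mean TPM. The product of TPM and model length came in whole steps (100.0% of values fine enough to tell lay within 0.1 of a whole read), which gave the recovered reads; library totals in the file headers are 1.18 to 1.20 times as high. Python 3.11.15, numpy 2.4.6, pandas 2.3.3 and matplotlib 3.10.9 served for tables, sequence searches and plots. Promoters are from RefSeq (GRCm38.p6), and shared 50-base windows were counted over GENCODE M21 transcripts.

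Groups and replicate numbers came from the sample titles. The text names all 39 members and, of 4 lists of other lysosome genes, the 3 with the lowest adjusted p in each direction among those called; Tpcn1, Cd9, Cd81 and Atp6v0d2 were added after their values were seen, and other called genes are named where a count is small. Some genes the rule names are not reported here. Alternatives were another pseudocount, other filters and scalings, removal of the gene length trend, the authors' deposited log2 values, limma-voom on recovered reads, no variance trend, a threshold of 0.01, a replicate block and leaving out each library.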

Additional observations from a re-analysis of the deposited data

How the results depend on the processing

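Of the 20 called members, 13 kept their call under all 18 alternatives, and 0 changed direction while called. Over all genes, 3034 (1373 higher, 1661 lower) were called at an adjusted p under 0.01 against 4899 (2248 higher, 2651 lower) at 0.05, and 3492 to 5673 (1648 to 2844 higher, 1829 to 2829 lower) with 1 library left out. Lumenal proteins called higher were 1, and 0 with no filter, with no variance trend or at an adjusted p under 0.01, and 0 to 2 with 1 library left out. Those called lower were 10, 6 at an adjusted p under 0.01, and 6 to 10 with 1 library left out. Pump genes called higher were 4, 6 with the gene length trend removed (Atp6ap2 and Atp6v0e added), 2 with no variance trend or at an adjusted p under 0.01, and 2 to 4 with 1 library left out; those called lower were 1, 2 with the gene length trend removed, and 1 to 3 with 1 library left out. The factors kept 1 call higher and 2 lower throughout. A stricter threshold passes fewer genes by construction; for the other shifts the cause was not tested.

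Whether the replicate numbers pair the libraries could not be settled with 3 libraries per group. Deviations of same-numbered M0 and M2 libraries correlated at -0.03, 0.21 and 0.03, and not every library correlated best with its own number. With the replicate block 4870 genes were called, and 2 membrane proteins (Cd68 and Mcoln1) were lower. With the replicate block and the length trend removed, 2 membrane proteins were lower, and 7 pump genes were higher and 2 lower.

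Few reads underlie the values of Cd63 (7 reads per group) and of Tfec in M0 (8 reads).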

Other observations

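Some related channel genes moved apart; these pairs were chosen after their values were seen. The ratio of Mcoln1 to Mcoln2, calcium channels of endosomes and lysosomes, was 1.08, 1.13 and 1.15 in M0 and 0.467, 0.488 and 0.478 in M2. For the channel genes Tpcn1 and Tpcn2 the ratio was 1.92, 1.82 and 1.82 in M0 and 1.12, 0.969 and 0.847 in M2. Tpcn1 averaged 16.8 TPM in M0 and 12.9 TPM in M2 (limma adjusted p = 0.0416, called under 12 of 18 alternatives), and its log2 difference of -0.38 was -0.21 without M2 replicate 3. Tpcn2 averaged 9.03 and 13.1 TPM (limma adjusted p = 0.00207). In both ratios every M2 library lay below every M0 library. That follows from the levels, since Mcoln1 and Tpcn1 were lower in every M2 library and Mcoln2 and Tpcn2 higher.

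Cd63 was near 0 while other tetraspanins were abundant. Cd9 gave 452, 398 and 418 TPM in M0 and 352, 330 and 343 TPM in M2, and Cd81 gave 358, 340 and 335 TPM in M0 and 254, 267 and 249 TPM in M2. Both were lower in every M2 library, at log2 differences of -0.30 (Cd9, limma adjusted p = 0.00459) and -0.42 (Cd81, limma adjusted p = 4.1e-04). Atp6v0d2, the relative of Atp6v0d1 known from osteoclasts, had 6 recovered reads in M0 and 1 in M2.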
